A study of Mus musculus with 12 samples.

Results

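The serpins described here are 9 mouse genes, Serpina3f, Serpina3g, Serpina3n, Serpinb2, Serpinb6a, Serpinb8, Serpinb9, Serping1 and Serpinf1, taken by gene name from a count table of 55586 genes that holds 69 serpin genes. They were chosen by measured values, the lower levels of Serpina3g and Serpinb2 in Remodelin-treated cells, so their differences with Remodelin are given as descriptions without a test. RNA was sequenced from mouse peritoneal macrophages, the phagocytes of the abdominal cavity, in 4 groups of 3 libraries. The groups were untreated control cells, cells given interferon gamma (IFN-γ, the classical macrophage-activating cytokine), cells given Remodelin hydrobromide, and cells given both Remodelin hydrobromide and IFN-γ. Remodelin is a small-molecule inhibitor of NAT10, the enzyme that places N4-acetylcytidine on RNA, and the series title links loss of that mark in macrophages to the environment of liver tumours. The sources used here give no dose, duration, strain, age or number of animals. Whether the 3 libraries per group are separate cultures or animals is not stated either, so each p-value measures only the spread between libraries, which may be technical.

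Most serpins inhibit proteases by offering an exposed loop as bait: the protease cleaves the loop and is trapped in a covalent complex with the folded-over inhibitor. Many clade A members, such as Serpina3n, are secreted, although Serpina3g acts inside cells, and clade B members work mostly inside cells, where they guard against the cell's own or incoming granule and lysosomal proteases. In macrophages the family is known for control of plasminogen activation, of complement and of cathepsin and granzyme damage, and Serpina3g is known in mouse as an interferon-responsive gene.

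Libraries held 15917454 to 19418665 counts. Read counts are given as CPM, counts scaled to a common library size after TMM, a correction for differences in library composition, and 3 reads, the smallest count treated as measurable, corresponded to 0.152 to 0.192 CPM. The summed level of 11 macrophage markers ranged from 15000 to 25200 CPM over the 12 libraries, with none at 0, so the labelled cell type matched its markers. Markers of other peritoneal cells were present at lower sums. With and without Remodelin, respectively, 13 mesothelial markers summed to 77.3 to 98 CPM and 127 to 169 CPM, 10 fibroblast and stromal markers to 306 to 533 CPM and 386 to 714 CPM, 11 neutrophil markers to 53.7 to 57.7 CPM and 70.6 to 84.5 CPM, and 11 B cell markers to 14 to 17 CPM and 21.5 to 28.7 CPM. Mast cell markers (10 genes, Ms4a2 at 0) summed to 2.24 to 4.38 CPM with and 4.72 to 5.77 CPM without Remodelin. Dendritic cell markers (8 genes) summed to at most 6.24 CPM, and T and NK cell markers (12 genes, Ncr1, Gzma and Gzmb at 0) to at most 3.73 CPM. In bulk RNA, fewer cells of a type and less RNA per cell cannot be told apart.

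RefSeq promoter sequences were found by gene symbol for 8 of the 9 genes. Of these, 5 are shown to set the 3 related clade A genes side by side and to show the matches in Serpinb2 and Serpinb9. Each run is the 250 bases before the start in the direction of transcription. Capitals mark matches, on either strand, to GAS (TTCNNNGAA, the gamma-activated site), ISRE (GAAA, any 2 bases, GAAA, the interferon regulatory factor element), AP-1 (TGANTCA) or a TATA box (TATAAA).
Serpina3g (GRCm38.p6 chr12:104235897-104236146, plus strand): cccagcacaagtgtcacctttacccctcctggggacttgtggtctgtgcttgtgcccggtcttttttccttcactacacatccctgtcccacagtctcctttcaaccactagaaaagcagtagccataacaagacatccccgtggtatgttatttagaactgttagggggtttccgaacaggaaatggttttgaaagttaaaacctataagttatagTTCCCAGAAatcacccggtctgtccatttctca
Serpina3f (GRCm38.p6 chr12:104214294-104214543, plus strand): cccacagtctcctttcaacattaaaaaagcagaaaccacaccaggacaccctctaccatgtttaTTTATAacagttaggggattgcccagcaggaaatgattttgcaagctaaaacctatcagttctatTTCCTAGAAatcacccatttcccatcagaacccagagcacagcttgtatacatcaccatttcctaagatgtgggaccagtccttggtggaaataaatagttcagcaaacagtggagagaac
Serpina3n (GRCm38.p6 chr12:104406458-104406707, plus strand): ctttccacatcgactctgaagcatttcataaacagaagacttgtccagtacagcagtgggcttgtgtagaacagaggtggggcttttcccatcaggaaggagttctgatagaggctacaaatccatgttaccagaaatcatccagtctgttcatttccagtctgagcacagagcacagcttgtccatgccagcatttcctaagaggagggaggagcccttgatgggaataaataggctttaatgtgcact
Serpinb2 (GRCm38.p6 chr1:107511173-107511422, plus strand): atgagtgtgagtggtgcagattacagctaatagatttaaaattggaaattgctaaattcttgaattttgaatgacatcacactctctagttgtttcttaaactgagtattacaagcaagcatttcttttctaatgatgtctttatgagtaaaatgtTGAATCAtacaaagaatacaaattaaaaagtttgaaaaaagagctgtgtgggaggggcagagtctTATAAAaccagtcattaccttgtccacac
Serpinb9 (GRCm38.p6 chr13:33004291-33004540, plus strand): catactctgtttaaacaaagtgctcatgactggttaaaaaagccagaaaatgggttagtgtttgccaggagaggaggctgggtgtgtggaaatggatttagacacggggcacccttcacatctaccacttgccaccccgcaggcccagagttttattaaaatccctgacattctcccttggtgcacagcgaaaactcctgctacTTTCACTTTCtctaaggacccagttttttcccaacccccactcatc
Serpina3g held 1 GAS match, TTCCCAGAA, at 33 to 25 bases before its start, and Serpina3f held 1, TTCCTAGAA, at 121 to 113 bases. These lie in a shared stretch: 119 of 144 aligned bases, or 82.6%, were identical between both genes, over 250 to 106 bases before the start of Serpina3f and 163 to 18 bases before that of Serpina3g. Serpina3f also held a TATA box match on the opposite strand. In the Serpina3n window no match to these letters was found, and 66 of 84 aligned bases (78.6%) were identical to Serpina3f. Serpinb2 held an AP-1 match at 94 to 88 bases and a TATA box at 29 to 24 bases, and Serpinb9 an ISRE match, TTTCACTTTC, on the opposite strand at 46 to 37 bases. Among the other 3 promoters, Serpinb6a held a GAS and an overlapping ISRE match, Serpinb8 an AP-1 match, and Serpinf1 none. GAS matches stood in 3 of the 8 promoters and in 7.14% of 27025 mouse promoters of that length, ISRE in 2 and 3.05%, AP-1 in 2 and 6.85%, and the TATA box in 2 and 12.98%. A match describes letters in this window and is not a site shown to be bound.

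In untreated macrophages the serpins covered a wide range of levels per gene length, given as the authors' FPKM (n = 3 libraries). Serpinb6a, an intracellular inhibitor of cathepsin G, led at 50.5 ± 7.37 FPKM (SD). Serpinf1, which encodes the non-inhibitory antiangiogenic factor PEDF, followed at 11.9 ± 2.08 FPKM, and Serpina3g, an intracellular inhibitor of cathepsins and serine proteases in mouse, at 7.05 ± 1.79 FPKM. Control libraries of these 3 genes did not overlap each other in FPKM. The complement inhibitor gene Serping1 stood at 4.13 ± 0.113 FPKM and Serpinb2, the urokinase inhibitor PAI-2, at 3.79 ± 0.311 FPKM, and their libraries overlapped. Serpina3n, a secreted inhibitor of granzyme B and neutrophil proteases, was at 3.27 ± 0.326 FPKM, Serpinb8, whose human counterpart inhibits furin in vitro, at 3.11 ± 0.418 FPKM, and Serpinb9, the intracellular inhibitor of granzyme B, at 2.99 ± 0.822 FPKM. Neighbours among these 3 overlapped as well, so their order does not stand beyond the spread.

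**Figure D1:**
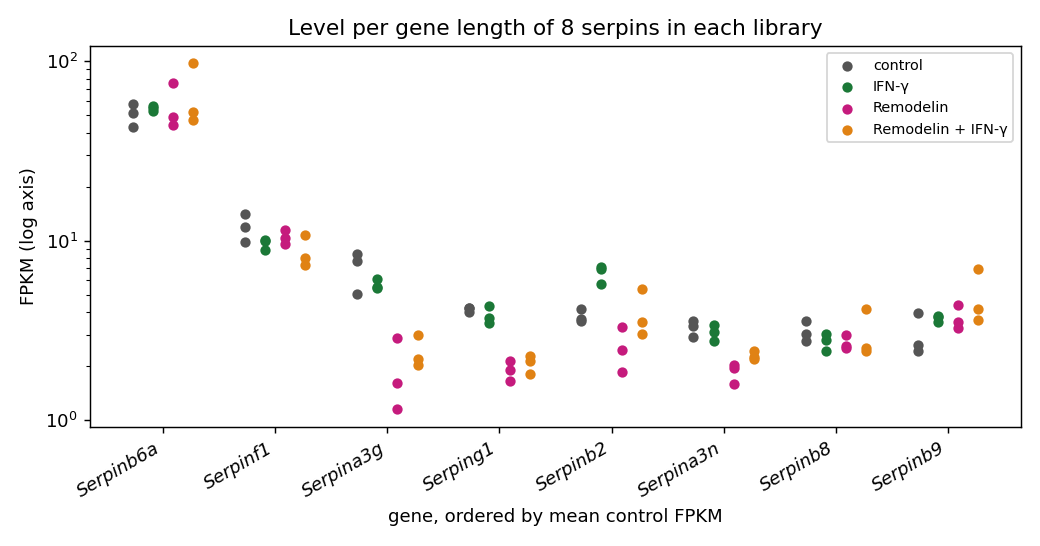
FPKM (log axis) of 8 serpin genes in each of the 12 libraries, with 1 point per library coloured by group and genes ordered by their control mean. Serpinb6a lies above all others at 42.8 to 97.3 FPKM, and Serpina3f, with 8 reads in all, is not drawn.

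Serpina3f was close to absent. It had 8 reads over all 12 libraries, with 1 read in control 3, 2 in IFN-γ 1, 3 in Remodelin with IFN-γ 2 and 2 in Remodelin with IFN-γ 3. No library exceeded 3 reads or 0.156 CPM, so no fold change is given, and the gene did not pass the count filter. The other 8 passed in every fit. Serpina3f therefore differed from its neighbour Serpina3g, which had 1944 reads in the same libraries, although their upstream sequences are alike over the stretch printed above.

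Reads can be hard to assign within this family. In the GENCODE transcripts, 15.5% of the 50-base windows of Serpina3g also occurred in transcripts of another gene, most often the pseudogene Serpina3h, and 3.49% of 100-base windows did. For Serpina3f the shares were 10.6% and 3.4%, and for Serpina3n 6.9% and 0.2%. No 150-base window of these 3 was shared. Serpinb2 shared 7.52% of 100-base windows with annotated Serpinb10 transcripts, and Serpinb6a shared 19.9%, most often with Nqo2. Serpinb8, Serpinb9, Serping1 and Serpinf1 shared no 100-base window. Read length and the handling of reads with several matches are unknown here, so counts of Serpina3f, Serpina3g, Serpina3n, Serpinb2 and Serpinb6a are less certain.

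Among the 8 tested members, Serpina3g had the largest fitted difference with Remodelin, at both levels of IFN-γ. Its levels were 10.8, 16.3 and 17.7 CPM in control 1 to 3 and 13, 11.5 and 11.9 CPM with IFN-γ. They were 5.76, 2.42 and 3.41 CPM with Remodelin and 4.31, 6.36 and 4.66 CPM with both agents. All 6 Remodelin libraries lay below all 6 others. Control 1, at 10.8 CPM, stood below each library given IFN-γ alone, while the other controls stood above them. The fitted log2 fold change was -1.96 ± 0.28 (SE) without IFN-γ, a level 0.258 times that of control, and -1.24 ± 0.27 with IFN-γ, a level 0.423 times that of IFN-γ alone. These values took part in the choice of genes and carry no p-value. With the dependence of each library on GC content removed, an alternative chosen after seeing the data, the average over both levels of IFN-γ was -1.57 ± 0.19 against -1.60 ± 0.19.

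Serpinb2, the other gene behind the choice, was lower in both pairings by a smaller amount. It stood at 8.55, 9.82 and 8.57 CPM in control and 4.16, 5.82 and 7.8 CPM in Remodelin libraries, and the groups did not overlap. With IFN-γ it stood at 13.6, 16.5 and 17.1 CPM alone and at 12.7, 8.4 and 7.16 CPM with Remodelin, again without overlap, although Remodelin with IFN-γ 1 came close to IFN-γ 1. The log2 fold change was -0.60 ± 0.25 without and -0.74 ± 0.24 with IFN-γ. Removing the GC trend, as above, moved these to -0.89 and -0.98.

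Serping1 and Serpina3n, both secreted inhibitors, showed the same separation of libraries. Serping1, whose product blocks the complement proteases C1r and C1s and plasma kallikrein, was at 9.46, 9.82 and 9.77 CPM in control, 8.2, 8.7 and 10.2 CPM with IFN-γ, 4.22, 4.96 and 3.87 CPM with Remodelin and 4.99, 4.28 and 5.3 CPM with both. Its level with Remodelin was 0.45 times that of control (log2 fold change -1.15 ± 0.19) and with both agents 0.538 times that of IFN-γ (-0.90 ± 0.19). Serpina3n was at 6.12, 7.38 and 6.89 CPM in control, 7.07, 6.44 and 5.78 CPM with IFN-γ, 3.14, 4.21 and 4.04 CPM with Remodelin and 4.68, 5.06 and 4.54 CPM with both. The 6 Remodelin libraries were again below the other 6 for each gene, and the Serpina3n log2 fold changes were -0.84 ± 0.20 and -0.43 ± 0.20. The summed mesothelial, neutrophil, B cell and mast cell markers given above were also lower in all 6 Remodelin libraries than in the other 6, while the summed stromal markers overlapped. Single mesothelial markers did not all fall: 4 were called lower on average and 1, Igfbp5, higher (2.17 ± 0.38). Tested mast cell markers also differed in direction, with none called. Tpsab1 was at 1.44 ± 0.43, and Cma1, Hdc and Tpsb2 were at -1.02 ± 0.36, -1.07 ± 0.42 and -0.46 ± 0.24. The part of any of these markers in the serpin levels was not tested.

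**Figure D2:**
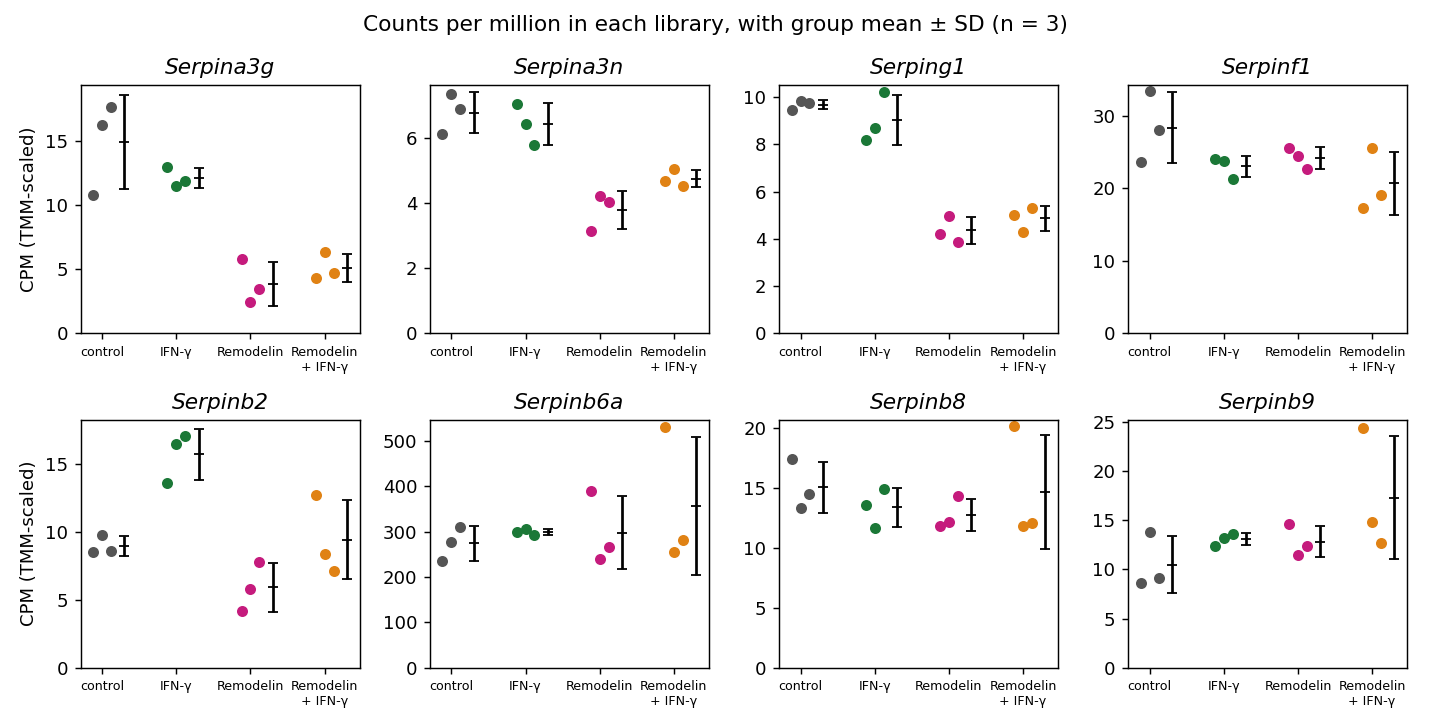
Level (TMM-scaled CPM, axis from 0) of 8 serpin genes by group, with 1 point per library in order of replicate number and the group mean ± SD beside it (n = 3). Serpina3g, Serpina3n and Serping1 are lower in all 6 Remodelin libraries than in the other 6, and Serpinb6a, Serpinb8 and Serpinb9 each have their highest point in Remodelin with IFN-γ 1.

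The remaining members did not separate by Remodelin. Serpinf1 was at 23.6 to 33.4 CPM in control, 21.3 to 24 CPM with IFN-γ, 22.6 to 25.6 CPM with Remodelin and 17.3 to 25.6 CPM with both, with log2 fold changes for Remodelin of -0.23 ± 0.18 and -0.15 ± 0.18. Serpinb6a ranged from 235 to 311 CPM over the 6 libraries without Remodelin and from 239 to 531 CPM over the 6 with it (0.11 ± 0.24 and 0.25 ± 0.24). Serpinb8 ranged from 11.7 to 17.4 and from 11.8 to 20.2 CPM (-0.24 ± 0.21 and 0.13 ± 0.21), and Serpinb9 from 8.6 to 13.8 and from 11.5 to 24.4 CPM (0.28 ± 0.24 and 0.40 ± 0.24). Libraries with and without Remodelin overlapped for each of these 4 genes. Without Remodelin with IFN-γ 1, the Remodelin difference in cells given IFN-γ was -0.13 ± 0.20 for Serpinb6a, -0.14 ± 0.18 for Serpinb8 and 0.090 ± 0.21 for Serpinb9.

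**Figure D3:**
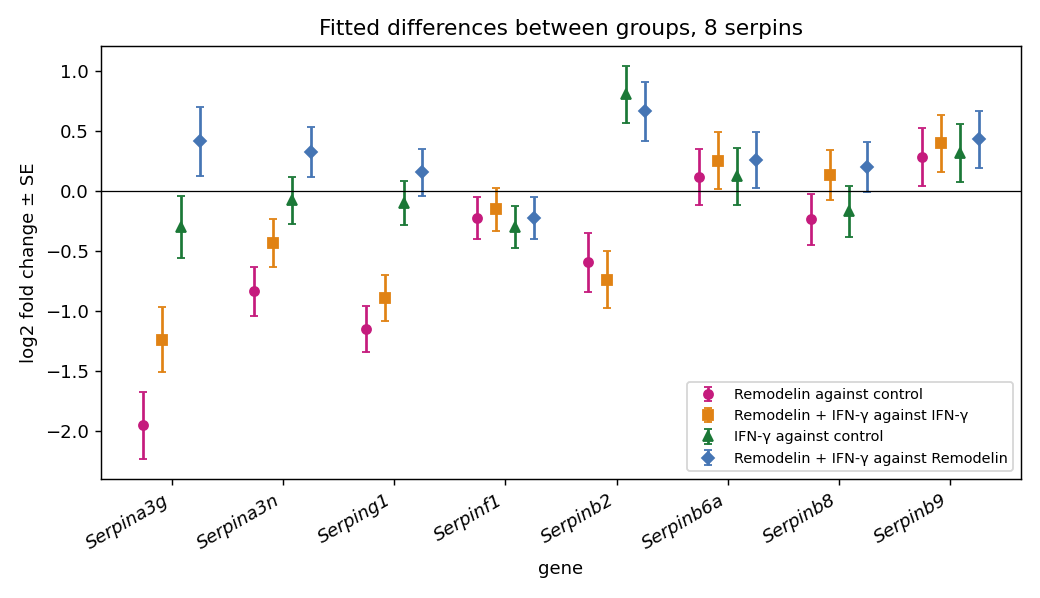
Fitted log2 fold change ± SE of 8 serpin genes for the 4 comparisons between groups of 3 libraries. Serpina3g, Serping1, Serpina3n and Serpinb2 lie furthest below 0 for both Remodelin comparisons, Serpina3g lowest at -1.96, Serpinf1 lies slightly below 0 in both, and Serpinb2 lies highest for both IFN-γ comparisons, at 0.81 and 0.66.

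The clade B genes shared 1 library. Serpinb6a was at 531 CPM in Remodelin with IFN-γ 1 against 256 and 282 CPM in the other libraries of that group, Serpinb9 at 24.4 against 14.8 and 12.7 CPM, and Serpinb8 at 20.2 against 11.8 and 12.1 CPM. Of 10 clade B genes that passed the count filter, members and others together, 8 had their highest level of all 12 libraries there, as did 24.3% of all genes tested. None of the 4 clade A genes did. The clade B transcripts held 39.3 to 44.2% GC, below the median of 49.8% over 13339 tested genes, and the clade A transcripts 49.6 to 51.9%. This library also had the strongest dependence on GC content, with a Spearman correlation of -0.69 between its deviations and GC over genes, where the other 11 ranged from -0.373 to 0.55. Its ratio to the mean of the other libraries of its group was 1.97 for Serpinb6a, 1.78 for Serpinb9, 1.68 for Serpinb8 and 1.64 for Serpinb2. With the GC trend removed the ratios were 1.29, 1.26, 1.16 and 1.04. Serpina3g had a ratio of 0.782 and then 0.825.

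**Figure D4:**
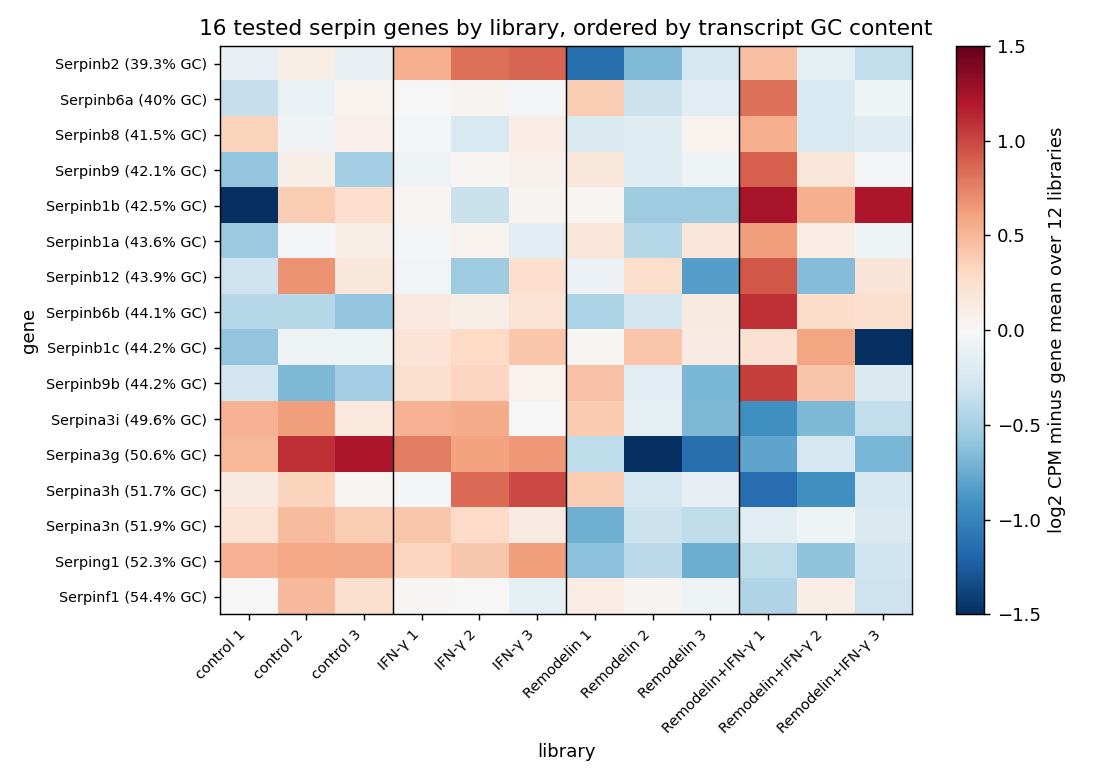
Log2 CPM of the 16 serpin genes of clades A, B, F and G that passed the count filter, as the difference from each gene's mean over 12 libraries, with libraries in columns and genes in rows ordered from 39.3 to 54.4% transcript GC; colours stop at -1.5 and 1.5. Most of the low-GC genes at the top are high in Remodelin with IFN-γ 1, and Serpina3g, Serpina3n and Serping1 are high in the 6 libraries without Remodelin.

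The effect of IFN-γ was tested as its average over cells with and without Remodelin, a comparison that by its balance is independent of the Remodelin differences behind the choice of genes. Of 8 members tested, 0 were called by edgeR's quasi-likelihood test at an adjusted p under 0.05, where 0.00742% of 13474 genes were called, namely the mitochondrial transfer RNA gene mt-Tp alone. At an unadjusted p under 0.05 there were 2, Serpinb2 and Serpinb9, and DESeq2 called 1, Serpinb2. Over all 13474 genes 12.9% had an unadjusted p under 0.05. DESeq2, fitted to the whole table without this count filter, called 19 genes, which is 0.141% of that number. The libraries showed little of an interferon response in general: of 20 tested genes known to respond to IFN-γ, 0 were called, 2 had an unadjusted p under 0.05 and DESeq2 called 1. Gbp2, an interferon-inducible GTPase, was at 6.82 CPM on average in control, 8.4 CPM with IFN-γ, 6.33 CPM with Remodelin and 11.1 CPM with both (log2 fold change of the average effect 0.56 ± 0.12, adjusted p = 0.27, edgeR). Nos2 had 0 reads in all 12 libraries.

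Serpinb2 came nearest to the threshold among the members. Its 3 IFN-γ libraries (13.6 to 17.1 CPM) lay above the 3 controls (8.55 to 9.82 CPM), while libraries with both agents (7.16 to 12.7 CPM) overlapped those with Remodelin alone (4.16 to 7.8 CPM). The average log2 fold change was 0.74 ± 0.17, or 1.67-fold, with a 95% interval of 0.38 to 1.10 and an adjusted p of 0.286 (edgeR, unadjusted p = 0.000468, rank 19 of 13474 genes). DESeq2 gave 0.72 ± 0.18 with an adjusted p of 0.0284. The edgeR call was also made with no filter on low counts (adjusted p = 0.00235). Without both Remodelin 1 and Remodelin with IFN-γ 1, the IFN-γ difference within Remodelin-treated cells was 0.20 ± 0.21. With the GC trend removed the average was 0.44 (adjusted p = 0.572), and over the 19 alternatives the adjusted p ran from 0.00235 to 0.572.

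The other members had smaller average differences with IFN-γ. Serpinb9 was at 0.37 ± 0.17 (1.3-fold, 95% interval 0.02 to 0.73, adjusted p = 0.373), but at 0.12 ± 0.15 with the GC trend removed (adjusted p = 0.856) and at 0.20 ± 0.14 without Remodelin with IFN-γ 1 (adjusted p = 0.768). Serpinf1 was at -0.26 ± 0.13 (interval -0.53 to 0.00012, adjusted p = 0.388). The 2 clade A genes, Serpina3g (0.06 ± 0.19, interval -0.35 to 0.46, adjusted p = 0.924) and Serpina3n (0.12 ± 0.14, interval -0.18 to 0.42, adjusted p = 0.739), and Serping1 (0.03 ± 0.13, interval -0.26 to 0.31, adjusted p = 0.946) had intervals that include 0. So did Serpinb6a (0.19 ± 0.17, adjusted p = 0.643) and Serpinb8 (0.01 ± 0.15, adjusted p = 0.977). All these p-values are from edgeR.

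The difference between both IFN-γ effects, with minus without Remodelin, is given as a value only, since it contains the libraries that chose the genes. It was 0.71 ± 0.39 on the log2 scale for Serpina3g, where IFN-γ gave -0.30 ± 0.26 in cells without Remodelin and 0.41 ± 0.29 in cells with it. Without Remodelin 1, whose 5.76 CPM was the highest of its group, the difference was 1.11 ± 0.35, and that library alone moved it by more than 1.5 times. For Serpina3n it was 0.40 ± 0.28, for Serpinb8 0.37 ± 0.30, for Serping1 0.26 ± 0.27, for Serpinb2 -0.14 ± 0.34, for Serpinb6a 0.14 ± 0.33, for Serpinb9 0.11 ± 0.34 and for Serpinf1 0.07 ± 0.25. Without Remodelin with IFN-γ 1 it was -0.29 ± 0.27 for Serpinb6a, -0.24 ± 0.28 for Serpinb9 and 0.06 ± 0.24 for Serpinb8, and without both that library and Remodelin 1 it was -0.61 ± 0.27 for Serpinb2.

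Across the 12 libraries the members fell into patterns that are described here without a test, since the groups themselves set much of them. Serpina3g followed Serping1 (Pearson r = 0.871) and Serpina3n (0.832) in log2 CPM, and Serping1 followed Serpina3n (0.868), but after subtraction of group means these were -0.424, -0.241 and -0.222. Serpinb6a and Serpinb9 followed each other at 0.757 and at 0.755 after that subtraction, with Remodelin with IFN-γ 1 high for both. The 5 protein-coding genes most like Serpina3g among 11976 were Acat2 (r = 0.974), Speg (0.972), Hic1 (0.969), Rcn3 (0.968) and P3h4 (0.964), and within groups their r was 0.746 to 0.906. Those most like Serpinb2 were Tfrc (0.912), Stx3 (0.911), Mmp27 (0.91), Tceal7 (0.897) and 2810004N23Rik (0.897), with 0.532 to 0.841 within groups. All of these values share 12 libraries, their Remodelin contrast and their GC trend.

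Of the other 60 serpin genes in the table, 31 had a read and 12 passed the count filter. For the Remodelin effect averaged over both levels of IFN-γ, 2 were called higher and 2 lower, and 8 did not pass. Over all genes, 7.04% of 13474 were called, 2.24% higher and 4.8% lower. Serpini1, the tissue plasminogen activator inhibitor neuroserpin, rose by 1.31 ± 0.35 (adjusted p = 0.0331, edgeR) from a level of at most 8 reads a library without Remodelin. Serpine2, an inhibitor of thrombin, fell by 1.00 ± 0.27 (adjusted p = 0.0347) and Serpina3i, a clade A relative of Serpina3g, by 0.83 ± 0.24 (adjusted p = 0.0451). In fits without 1 library these 3 calls were kept in 5, 2 and 2 of 12, with adjusted p up to 0.0957, 0.107 and 0.125. Serpinh1, the collagen chaperone HSP47, stood at -0.37 ± 0.11 (adjusted p = 0.0502). For the average IFN-γ effect 0 of these 12 were called by edgeR, 2 had an unadjusted p under 0.05 and DESeq2 called 0.

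Lists of proteases, some of them targets of serpins, and of related genes were examined for the same average Remodelin effect. Over all tested genes, 7.04% were called by edgeR and 26.1% had an unadjusted p under 0.05. DESeq2 calls came to 10.1% of the number of tested genes. Of 14 cathepsins and lysosomal proteases, only some of them targets of Serpina3g, 1 was lower with Remodelin, the carboxypeptidase cathepsin A gene Ctsa (-0.40 ± 0.11, adjusted p = 0.0381, edgeR), and 0 were higher (median log2 fold change -0.06, against 0.03 over all genes). Among these 14, 8 had an unadjusted p under 0.05 and DESeq2 called 3. Cathepsin B, the best-known target of Serpina3g, was at -0.34 ± 0.12 (adjusted p = 0.0899). Of 12 tested serine proteases of coagulation, fibrinolysis and complement, 1 was lower, the tissue plasminogen activator gene Plat (-0.61 ± 0.17, adjusted p = 0.0391), with a median of -0.14, and here 4 had an unadjusted p under 0.05 and DESeq2 called 2. Urokinase, Plau, the target of Serpinb2, was at 0.27 ± 0.09 (adjusted p = 0.0836), and C1ra and C1s1, targets of Serping1, were at 0.04 ± 0.12 and 0.06 ± 0.12 (adjusted p = 0.87 and 0.777). Of 4 tested granule serine proteases 0 were called by edgeR, 2 had an unadjusted p under 0.05 and DESeq2 called 1, and granzyme B, the target of Serpinb9 and Serpina3n, had 0 reads in all libraries. Among 10 receptors and partners of serpin complexes, tissue factor (F3) rose by 0.99 ± 0.20 (adjusted p = 0.00816) and the lipoprotein receptor Vldlr by 1.01 ± 0.26 (adjusted p = 0.0288). Of 11 other protease inhibitors, 1 was lower, the Kunitz inhibitor Spint1 (-1.06 ± 0.28, adjusted p = 0.0347). F3 kept its call in 12 of 12 fits without 1 library, Vldlr and Spint1 in 4 each, and Ctsa and Plat in 3 each. For the average IFN-γ effect 0 genes of these lists were called by edgeR or DESeq2, and 2, 1, 0, 1 and 1 had an unadjusted p under 0.05 in the order above.

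The marker and response lists are given by their counts of calls for the average Remodelin effect, beside the same 7.04% over all genes. Of 12 tested mesothelial markers 4 were lower and 1 higher, led by Upk3b (-1.80 ± 0.14, adjusted p = 2.16e-06, edgeR), of 9 stromal markers 2 were lower (Mgp and Col3a1), of 6 neutrophil markers 2 (Mmp9 and Mmp8) and of 7 B cell markers 2 (Ighm and Igkc). Of these calls, Krt19, a mesothelial keratin, was kept in 3 of 12 fits without 1 library, Igkc in 6 and Upk1b in 11. Of 20 tested genes known to respond to IFN-γ, 5 were lower and 0 higher with Remodelin, namely H2-Ab1, H2-Aa, Cxcl10, Ciita and Irf1, of which Ciita and Irf1 kept their calls in 7 and 4 of 12 fits without 1 library. Cxcl10, a chemokine, was at -1.47 ± 0.25 (adjusted p = 0.00297) and Irf1, a transcription factor that binds the ISRE, at -0.47 ± 0.12 (adjusted p = 0.0327). Of 10 tested macrophage markers 1 was higher, Ltbp1 (a call kept in 6 of 12 such fits), and 0 lower. Of the 1 tested T and NK cell, 4 mast cell and 2 dendritic cell markers 0 were called by edgeR, with 0, 3 and 0 at an unadjusted p under 0.05 and 0, 1 and 0 called by DESeq2, against the 26.1% and 10.1% given above. The part of these genes in the serpin levels was not tested.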

How the data were processed

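Raw read counts per gene and FPKM (fragments scaled by gene length and library size) for 12 libraries come from the table the authors deposited, per the file headers. The submitters' processing notes list CASAVA 1.8, HISAT2 2.0.5, and also featureCounts 1.5.0-p3, without a role for each. Build, strand setting and read length: not given in the sources used here. Groups and replicate numbers came from the titles. No column of per-library values was left unmapped.

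Counts were tested with edgeR 4.0.16 in R 4.3.3 (quasi-likelihood test, TMM, default count filter by group) in 1 fit of all 12 libraries with a mean per group. It kept 13474 genes, and p-values were adjusted over them by Benjamini-Hochberg and called under 0.05. Variation between libraries beyond counting error, as edgeR's common coefficient, came to 18.6% and may be technical in part or whole. Errors after ± are SE for log2 fold changes and SD for levels. Log2 CPM for correlations used a prior count of 2. Counting floors of 3 reads cover counting error only, since the reads carry no molecular identifiers. FPKM was used only for levels between genes. Promoters are RefSeq sequences of GRCm38.p6, matched by symbol. Transcript windows and GC content came from GENCODE M21.

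Members and gene lists were chosen with earlier results of these data known, and the average Remodelin effect had been added in earlier work on them. All members, every other serpin called, up to 4 called genes per list and the 5 genes most like Serpina3g and Serpinb2 were to be named; mt-Tp, targets of the members, the called gene beyond 4 in a list, Gbp2, Nos2 and Serpinh1 were named after their values were seen. On simulated counts with 200 of 13474 genes changed, the test recovered 73.6% of 2-fold changes for the average IFN-γ effect (4 of 124 calls false) and 77.4% for the average Remodelin effect (10 of 128). Of 1.5-fold changes it recovered 44.7% and 38.3%, respectively, and every member's average IFN-γ difference was below 2-fold. Alternatives were DESeq2 1.42.0, DESeq2 size factors, no or a stricter count filter (50 reads in 3 libraries), a replicate block, each library left out and, chosen after seeing the data, removal of the GC trend and joint omission of Remodelin 1 and Remodelin with IFN-γ 1. The DESeq2 fit used the whole table of 55586 genes without edgeR's count filter. Some called genes are not reported here.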

Additional observations from a re-analysis of the deposited data

How the results depend on the processing

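Genes called for the average IFN-γ effect numbered 1, and 325 with no filter on low counts (245 higher, 80 lower), 19 with DESeq2, 2 without both Remodelin 1 and Remodelin with IFN-γ 1, and 0 to 4 in fits without 1 library. For the average Remodelin effect they numbered 949 (302 higher, 647 lower), 2427 without both those libraries (1192 higher, 1235 lower), and 298 to 1960 in fits without 1 library, lowest without control 2 and highest without Remodelin 1. With no count filter the split was 778 higher and 628 lower, with DESeq2 572 and 789, and with DESeq2 size factors 327 and 496. The cause was not tested. Of 152 alternative values of the members for the average IFN-γ effect, 133 kept direction and call, 2 (both Serpinb2) passed the threshold and 17 changed sign. The genes were Serpina3g, Serpinb8 and Serping1, with differences near 0, and Serpinb6a at 0.19 ± 0.17. The sign changes were Serpinb6a with the GC trend removed (-0.15), Serpinb8 with DESeq2 size factors (-0.0042), DESeq2 (-0.0024), the GC trend removed (-0.24) and both libraries left out (-0.15), and fits without 1 library. Those fits ranged from -0.066 to 0.26 for Serpina3g, -0.023 to 0.31 for Serpinb6a, -0.14 to 0.083 for Serpinb8 and -0.018 to 0.082 for Serping1. Of 912 alternative values without a test, 21 moved by more than the spread between libraries, 8 of them without Remodelin with IFN-γ 1 and 8 without both libraries. Of 504 alternative values of other called genes, 382 kept their call and 122 lost it. Serpina3g with Remodelin ranged from -2.36 to -1.71 without IFN-γ and from -1.43 to -1.11 with it.

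Little sign of pairing by replicate number was seen in these values. Of 18 same-numbered pairs, 5 had a correlation of deviations above 0.1 (range -0.547 to 0.261), and 2 of 12 libraries correlated best with their own number. Libraries of a group also differed in their GC trend, so these correlations cannot decide whether same-numbered libraries shared a source. With the replicate block, 578 genes were called for the average Remodelin effect (161 higher, 417 lower) and 1 for the average IFN-γ effect.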
